A study of Saccharomyces cerevisiae with 18 samples.

Results

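The mRNAs of hexose transporters and glucose sensors were followed in a hybrid diploid of the yeast Saccharomyces cerevisiae after transcription had been blocked. The members were chosen by gene name: the transporters HXT1 to HXT7 and the sensors RGT2 and SNF3, 9 genes in all. A gene could be read only where its transcript feature held a single-nucleotide variant (SNV) that tells the parental alleles apart. That left 7 of the 9 genes, 5 transporters and 2 sensors, among 3974 features in the table of the whole series. HXT3 (YDR345C) and HXT5 (YHR096C) held no SNV in the tables and are not analysed here. HXT4 was read only in a feature that also holds its neighbour MSR1, a gene for mitochondrial arginyl-tRNA synthetase, so the values of MSR1/HXT4 cannot be given to HXT4 alone.

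The hybrid was made from the laboratory strain BY4716 (BY) and the vineyard strain RM11-1a (RM), each with rpb1-1, an allele of the largest RNA polymerase II subunit that stops transcription at high temperature. Cultures grew at 24 °C in rich glucose medium (YEPD) and were taken to 37 °C by adding 60 mL of YEPD at 50 °C to 60 mL of culture. Poly(A) RNA was sequenced at 6 times, from 0 through 6, 12, 18 and 24 to 42 min, in 3 independent cultures, numbered 1 to 3, which gave 18 libraries. All groups thus share the hybrid genotype, the mutation and the addition of fresh medium. Heat, the transcription block and fresh glucose medium came in the same step and cannot be told apart here. Libraries held 439453 to 1180513 reads that could be given to a parent (allelic reads), apart from 18 min of culture 3, with 74320. The BY share of all allelic reads was between 49.4% and 49.6% in each library.

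Hexose transporters carry glucose and other hexoses across the plasma membrane by facilitated diffusion, and yeast sets their mix by the glucose supply. Hxt1 is a low-affinity carrier made in high glucose, Hxt2 and Hxt4 are made in low glucose, and Hxt6 and Hxt7 are high-affinity carriers repressed by high glucose. Rgt2 and Snf3 resemble transporters but act as sensors. Their signal, through the casein kinases Yck1 and Yck2 and the ubiquitin ligase subunit Grr1, removes Mth1 and Std1, the partners that the repressor Rgt1 needs at HXT promoters.

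HXT6 and HXT7 are near-identical copies, and this bears on each of their values. In the R64 reference, HXT6 (YDR343C, chromosome IV, 1159608 to 1161320, minus strand) and HXT7 (YDR342C, IV, 1154216 to 1155928, minus strand) have coding sequences of 1713 bp that differ at 3 bases. These are T1632C, G1666A and T1677C, with the HXT6 base first and positions counted from 1 at the first base of the coding sequence. The first 1631 bases are the same, far longer than the paired reads of 50 bp. The stretches below, read from the reference genome, show all 3 differences. They are coding strand, with the differing bases in capitals.

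HXT6, chrIV:1159675-1159704: atgggttccaccatcTagaagaggtgccaa

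HXT7, chrIV:1154283-1154312: atgggttccaccatcCagaagaggtgccaa

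HXT6, chrIV:1159636-1159665: tgaagaaatgGctcacgatgaTaagccatt

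HXT7, chrIV:1154244-1154273: tgaagaaatgActcacgatgaCaagccatt

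Over most of the coding sequence reads of one copy can also be placed on the other, so values of either gene alone are uncertain. For the other members no alignment to another gene reached a mean identity of 90% over at least 100 bp. Closer stretches within a longer alignment were not looked for, so exchange of reads with related genes was not tested for these members. HXT1 (YHR094C, VIII, 290913 to 292625) was nearest to HXT3, with 84.5% identity over 1553 bp, and HXT4 (YHR092C, VIII, 287081 to 288811) to HXT6, with 83.3% over 1654 bp. HXT2 (YMR011W, XIII, 288079 to 289704) was nearest to HXT10, with 74.8% over 1443 bp. The sensors RGT2 (YDL138W, IV, 213351 to 215642) and SNF3 (YDL194W, IV, 111580 to 114234) were nearest to each other, with 71.7% over 1396 bp. No other annotated gene overlaps the coding sequence of any member.

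The first comparison asked how the share of each transcript in the mRNA pool moved after the shift. HXT1, HXT2 and MSR1/HXT4 fell, HXT6 and HXT7 rose, and neither sensor passed the test at 42 min, when mean RGT2 was 104% and mean SNF3 75.3% of its 0 min level. By 42 min the fitted loss was 3.17-fold for HXT1, 4.73-fold for HXT2 and 11.9-fold for MSR1/HXT4. The fitted gain was 2.69-fold for HXT6 and 2.89-fold for HXT7. At 42 against 0 min 5 of the 7 members passed an adjusted p of 0.05 in edgeR's quasi-likelihood test, 2 higher and 3 lower. Across all 2840 genes tested 76.3% passed, 37.2% higher and 39.0% lower, so the number of members called is close to the background. The median log2 change was -0.37 for the members and -0.05 for all genes tested. The median size was 1.53 for the members and 0.79 for all genes tested. Levels below (CPM) are allelic read counts scaled to a common library total, with factors from the trimmed mean of M-values (TMM). They depend on the number of SNVs in a gene and are not compared between genes. They are shares of the mRNA pool, in which more of one transcript and less of the others cannot be told apart.

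**Figure D1:**
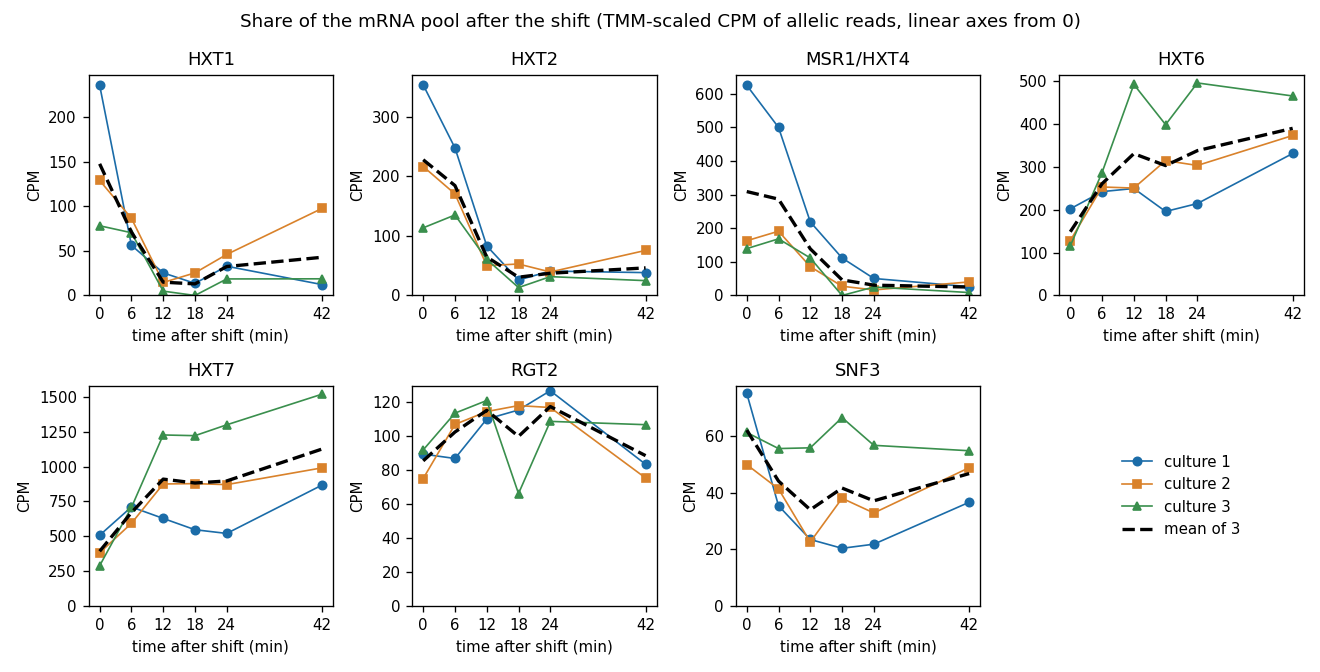
CPM of allelic reads (linear axes from 0) against time after the shift in minutes for the 7 members, with a line for each of 3 cultures and a dashed line for their mean. HXT1, HXT2 and MSR1/HXT4 fall within 18 min, HXT6 and HXT7 rise, and RGT2 and SNF3 are at 88.7 and 46.7 CPM on average at 42 min, against 85.6 and 62.0 at 0 min.

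HXT1, the low-affinity transporter, was lost early. It stood at 235, 129 and 78.1 CPM in cultures 1 to 3 at 0 min and at 56.2, 86.4 and 70.3 CPM at 6 min. At 12 min it was at 25.3, 14.5 and 4.85 CPM, and at 18 min at 13.6, 25.3 and 0 CPM. Each culture was then below each value of 0 min. The 18 min value of 0 comes from the shallow library, where 3 counts are 40.4 CPM before TMM scaling, and over the 3 libraries of 18 min HXT1 had 22 reads. Mean HXT1 at 18 min was 8.80% of its 0 min level, and it was 22% at 24 min and 29.0% at 42 min. At 42 min the cultures stood at 12.2, 97.5 and 18.7 CPM. Culture 2 was high there, within the range of 0 min, and the ranges of 18 and 42 min overlap. The log2 change was -3.18 ± 0.64 at 12 min (adjusted p = 3.49e-04) and -1.67 ± 0.50 at 42 min (adjusted p = 0.00540). Throughout, the ± after a log2 value is an approximate standard error, obtained as the value over the root of edgeR's F. Without culture 1 the 42 min change was -0.82 and did not pass (adjusted p = 0.154), and without culture 2 it was -3.25 (adjusted p = 5.65e-04). The 18 min change of -3.05 was -2.24 without culture 1.

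HXT2, a transporter of higher affinity, did not pass at 6 min, with a log2 change of -0.27 ± 0.33 (adjusted p = 0.563, interval from -0.92 to 0.39). It was at 353, 216 and 113 CPM in cultures 1 to 3 at 0 min and at 247, 170 and 135 CPM at 6 min, so the ranges overlap. By 12 min it was at 83.1, 50.1 and 60.6 CPM, below every 0 min value. The mean went to 13.5% of the 0 min level at 18 min and stood at 16.4% at 24 min and 20.3% at 42 min, with 38.3, 75.6 and 24.9 CPM in the cultures. The log2 change was -1.79 ± 0.40 at 12 min and -2.24 ± 0.39 at 42 min (adjusted p = 3.89e-05), and HXT2 was lower in 3 of 3 cultures. Without culture 2 the 42 min change was -2.87, and without culture 1 the 18 min change moved from -2.65 to -1.82, each still passing.

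MSR1/HXT4 had the deepest loss of the 7 members by 42 min and the widest spread at the start. Cultures 1 to 3 stood at 625, 163 and 139 CPM at 0 min, and at 500, 191 and 168 CPM at 6 min. At 24 min the values were 50.5, 16.4 and 25.0 CPM, and at 42 min 26.1, 40.2 and 8.70 CPM, each below all of the 0 min values. The mean fell in steps, to 44.9% of the 0 min level at 12 min, 15% at 18 min, 9.92% at 24 min and 8.10% at 42 min. The log2 change was -1.11 ± 0.59 at 12 min (adjusted p = 0.116), -2.13 ± 0.69 at 18 min and -3.58 ± 0.72 at 42 min (adjusted p = 1.74e-04). The 42 min change was -2.62 without culture 1 and -4.51 without culture 2, and both passed. The 18 min change did not pass without culture 2 (adjusted p = 0.0727), and the 18 min library of culture 3 had 0 reads of the feature. With the culture as a block, the 12 min change passed as well (-1.03, adjusted p = 0.00158).

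The genes of the high-affinity carriers moved the other way. HXT6 was at 202, 128 and 116 CPM in cultures 1 to 3 at 0 min and at 331, 373 and 465 CPM at 42 min, so each late value was above each early one. HXT7 went from 508, 383 and 290 CPM to 867, 991 and 1518 CPM, again without overlap. The log2 change at 42 min was 1.43 ± 0.30 for HXT6 (adjusted p = 2.31e-04) and 1.53 ± 0.31 for HXT7 (adjusted p = 2.15e-04). These are not taken as independent results, since reads of one copy may be placed on the other, which was not tested. At 12 min mean HXT6 was 2.23 times and mean HXT7 2.31 times its 0 min level, but the cultures differed. The log2 changes in cultures 1 to 3 were then 0.30, 0.95 and 2.06 for HXT6 and 0.31, 1.19 and 2.07 for HXT7. In culture 1 they were 0.08 and 0.04 at 24 min, so its rise came mainly later. The steps from 12 to 24 min were within the spread of the cultures. Without culture 2 the calls between were weaker: HXT7 missed the threshold at 12, 18 and 24 min (adjusted p = 0.0614, 0.131 and 0.0578), and HXT6 at 18 min (adjusted p = 0.314). Without the shallow library HXT6 at 18 min had 0.79 (adjusted p = 0.0633), and with library totals 0.75 (adjusted p = 0.0509). Culture 1 gained least at 42 min, by 0.71 for HXT6 and 0.77 for HXT7 on the log2 scale, and culture 3 most, by 1.98 and 2.38.

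RGT2, the sensor of high glucose, had the smallest fitted change of the members at 42 min. It was at 89.6, 75.2 and 92.1 CPM in cultures 1 to 3 at 0 min and at 83.6, 75.6 and 107 CPM at 42 min. The ranges overlap, and the log2 change was 0.05 ± 0.16 (adjusted p = 0.768), with an interval of 2 such errors from -0.27 to 0.38. Between these times its share was higher. The log2 change was 0.43 ± 0.16 at 12 min (adjusted p = 0.0338) and 0.45 ± 0.15 at 24 min (adjusted p = 0.0144). With library totals in place of TMM both lost their call (0.20, adjusted p = 0.291, and 0.31, adjusted p = 0.0789), and the 42 min value turned to -0.27. The 12 min call was also lost in DESeq2 (0.40, adjusted p = 0.0753). Without culture 1 or culture 2 both times lost their call, with an adjusted p of 0.0894 and 0.216 at 12 min and of 0.0986 and 0.177 at 24 min.

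SNF3, the sensor of low glucose, was at 74.9, 49.8 and 61.1 CPM in cultures 1 to 3 at 0 min and at 36.6, 48.7 and 54.7 CPM at 42 min. The log2 change at 42 min was -0.37 ± 0.32 (adjusted p = 0.291), with an interval from -1.0 to 0.26. SNF3 was lower in 3 of 3 cultures, and with library totals the change was -0.69 without a pass (adjusted p = 0.0536). Its share was lower between, with a change of -0.93 ± 0.36 at 12 min (adjusted p = 0.0363) and -0.99 ± 0.40 at 18 min (adjusted p = 0.0389). The fall was largest in culture 1, with -1.57 at 12 min, against -1.06 and -0.13 in cultures 2 and 3. At 18 min culture 3 was higher than at 0 min by 0.11, but this value rests on 5 reads in the shallow library. The 18 min call was lost in DESeq2 (-0.92, adjusted p = 0.0603). Without culture 1 the change was -0.60 at 12 min (adjusted p = 0.198) and -0.37 at 18 min (adjusted p = 0.509), and without culture 2 neither passed (adjusted p = 0.239 and 0.0960). SNF3 had 614 reads in all, the fewest of the members, and 38 over the 3 libraries of 18 min.

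In the first step, from 0 to 6 min, the median size of the log2 change was 0.47 for the members and 0.27 for all genes tested. HXT6 was called, with 0.84 ± 0.30 (adjusted p = 0.0334), against 34.9% of all genes tested, 17.6% higher and 17.3% lower. HXT7 had 0.78 ± 0.31 (adjusted p = 0.0588) and HXT1 -1.03 ± 0.46 (adjusted p = 0.0896). With the culture as a block 3 members passed, HXT6, HXT7 (adjusted p = 0.0141) and HXT1 (adjusted p = 0.0267). HXT6 missed the threshold without culture 2 (adjusted p = 0.242), without culture 3 (adjusted p = 0.0552) and with library totals (adjusted p = 0.0544). At 12 min 6 members passed, 3 higher and 3 lower, against 54.6% of all genes tested (27.8% higher, 26.8% lower). At 18 min 6 passed, 2 higher and 4 lower, against 60.4% (29.8% higher, 30.6% lower). At 24 min 6 passed, 3 higher and 3 lower, against 66.3% (33.0% higher, 33.4% lower). Without culture 2 the number was 3 at 12 min, 2 at 18 min and 4 at 24 min, and without culture 1 it was 4 at 12 min. The calls over all genes in these fits are not given here, so the lower numbers cannot be read as a trait of the members. At 6 min the calls over all 2840 genes also fell, from 991 to 535 without culture 2 and to 740 without culture 1. The comparisons of each time with 0 min share the 0 min libraries.

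**Figure D2:**
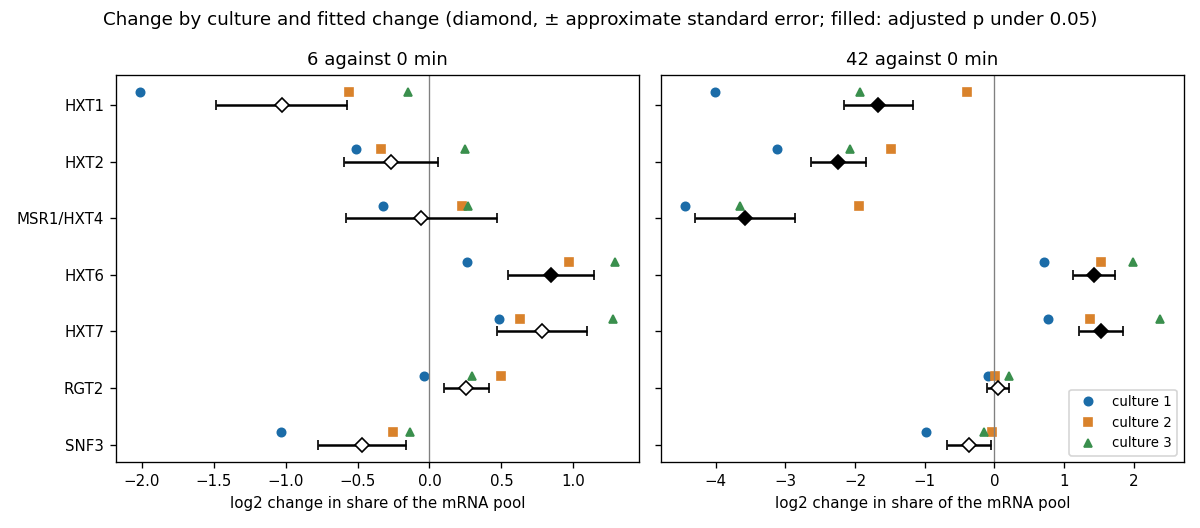
Log2 change in share of the mRNA pool at 6 and 42 min against 0 min for the 7 members. Coloured symbols are the 3 cultures, and diamonds are the fitted change with its approximate standard error, filled where the adjusted p is under 0.05. At 42 min HXT1, HXT2 and MSR1/HXT4 lie left of 0 and HXT6 and HXT7 right of 0 in each of 3 cultures.

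The starting levels differed between cultures. At 0 min culture 1 was the highest for 6 of the 7 members, all but RGT2, and culture 3 the lowest for the 5 transporter features. How often this order holds over all features was not counted, so it cannot be read as a trait of the members. HXT6 and HXT7 do not count as independent here. At 42 min culture 2 was the highest for HXT1, HXT2 and MSR1/HXT4, and culture 3 for the other 4 members. The part of these starting differences in the changes was not tested. With any culture left out the 42 min calls of HXT2, MSR1/HXT4, HXT6 and HXT7 held, and that of HXT1 was lost without culture 1 (adjusted p = 0.154). Each such fit still uses the 0 min libraries of the cultures that remain, so it does not separate starting level from change. Over the 18 libraries log2 CPM of HXT1 and HXT2 correlated with Pearson's r = 0.824, HXT2 and MSR1/HXT4 with 0.863, and HXT6 and HXT7 with 0.969. Aliquots of a culture are not independent points, and the HXT6 and HXT7 value may include reads placed on the other copy, which was not tested.

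For each member the 3 single-gene features with the highest Pearson's r of log2 CPM over the 18 libraries were taken. They came from 978 features with a mean of at least 100 reads per library. This r ignores the size of a change and also takes in differences between cultures. HXT1 was nearest to PHO90, a phosphate transporter gene (r = 0.874), followed by NAF1 (0.866) and YPS7 (0.862). Their log2 changes at 42 min were -3.37, -3.24 and -0.25, against -1.67 for HXT1. HXT2 was nearest to PRS3 (0.935), URA1 (0.927) and RPA190, the gene of the largest subunit of RNA polymerase I (0.926). MSR1/HXT4 was nearest to TED1 (0.936), EFM5 (0.920) and the ribosomal protein gene RPS19A (0.916). These fell far less by 42 min, with log2 changes of -0.65, -0.96 and -0.78, against -3.58 for MSR1/HXT4. HXT6 and HXT7 had ATP16, a subunit gene of the mitochondrial ATP synthase (0.912 and 0.916), and YPL247C (0.902 and 0.904) in common. GLG1, a glycogenin gene, came next for HXT6 (0.897), and TDA3 was second for HXT7 (0.915). At 42 min ATP16 had a log2 change of 0.31, TDA3 0.85, GLG1 2.01 and YPL247C 3.36. The changes of HXT6 and HXT7 were 1.43 and 1.53. The likeness was weaker for the sensors. RGT2 was nearest to MDG1 (0.733), EMP24 (0.702) and UTR4 (0.648), and SNF3 to the mitochondrial genes RSM25 (0.782), MDM38 (0.762) and MRPL20 (0.722).

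The second comparison asked whether the BY and RM alleles differed at 0 min. The call was made for 4 of 7 members, HXT6 and HXT2 higher from BY and HXT7 and HXT1 higher from RM. Over all 3030 genes tested 23.0% had a call, 10.5% higher from BY and 12.5% higher from RM. Of the 4, HXT6 and HXT7 are near-identical copies in the reference, so their values are uncertain for either gene alone. Whether reads were placed on the other copy was not tested. In DESeq2 3 of the 4 passed, and HXT2 did not.

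HXT1 was read more from RM. Its BY share at 0 min was 31.3%, 35.0% and 42.5% in cultures 1 to 3, below 50% in each. The log2(BY/RM) was -0.87 ± 0.15 (adjusted p = 1.07e-04). The value was uneven along the gene. At the 15 of its 17 SNVs with at least 20 reads over all libraries the BY share ran from 4.17% to 47.1%, with 3 SNVs under 20%. The deepest SNV, with 341 of the 856 reads, had 44.6% BY reads, and taken alone it gave -0.33 at 0 min without a call (adjusted p = 0.379). The size of the HXT1 difference therefore depends on the SNVs used.

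HXT2 was read more from BY, with shares of 58.3%, 56.5% and 59.1% at 0 min. The log2(BY/RM) was 0.46 ± 0.11 (adjusted p = 0.00294), and DESeq2 gave 0.46 with an adjusted p of 0.300. HXT2 has 1 SNV, so the value rests on that site. MSR1/HXT4 had shares of 55.0%, 45.7% and 47.1%, on both sides of 50%, and a log2(BY/RM) of 0.07 ± 0.11 (adjusted p = 0.719, interval from -0.15 to 0.28). RGT2 had 55.2%, 41.3% and 53.6% (0.02 ± 0.18, adjusted p = 0.954, interval from -0.34 to 0.38). SNF3 had 44.6%, 49.1% and 41.0%, below 50% in each culture, without a call (-0.33 ± 0.20, adjusted p = 0.272, interval from -0.73 to 0.07).

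HXT6 was read almost only from BY and HXT7 mostly from RM. The BY share of HXT6 at 0 min was 94.0%, 97.1% and 98.7%, and that of HXT7 17.6%, 15.5% and 16.2%. The log2(BY/RM) was 4.80 ± 0.23 for HXT6 (adjusted p = 2.56e-13) and -2.34 ± 0.09 for HXT7 (adjusted p = 6.21e-15). The HXT6 value was 5.52 without culture 1. The HXT7 value was -1.75 with all SNVs of the single-library tables and -3.35 at its deepest SNV, so its size depends on the SNVs used. The SNVs of HXT6 were alike, with BY shares from 89.5% to 100% at the 6 with at least 20 reads. Those of HXT7 were not. Of the 26 with at least 20 reads, 19 had under 20% BY reads and 6 had 30 to 70%, and most of the latter stood close together in the order of the files. With HXT6 and HXT7 summed, the BY share at 0 min was 38.3% ± 2.11 (SD, n = 3). Such a sum must lie between its parts. It is weighted by reads, 444 of HXT6 at 7 SNVs and 1181 of HXT7 at 29 SNVs, so it does not give the BY share of the pair. What part of the opposite values comes from reads placed on the other copy was not tested.

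**Figure D3:**
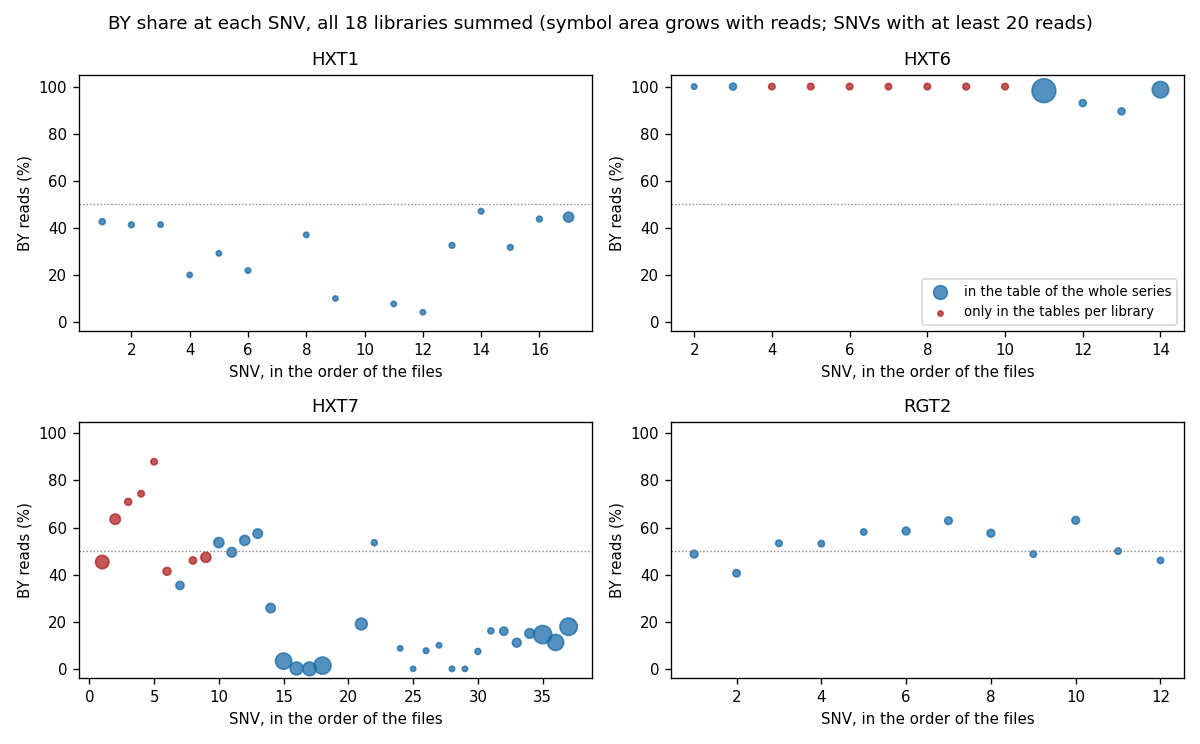
BY share of reads in percent at each SNV with at least 20 reads, all 18 libraries summed, in the order of the files, for HXT1, HXT6, HXT7 and RGT2. Symbol area grows with the reads, red SNVs are only in the tables per library, and the dotted line marks 50%. HXT6 lies at 89.5% or more, HXT7 goes from mixed SNVs to SNVs read mostly from RM, and RGT2 stays between 40.6% and 63.1%.

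The third comparison asked whether the alleles were lost at different rates, seen as a BY share that moves with time (allele-specific decay, ASD). No member was called among 7 tested in edgeR, and 188 of 2808 genes were (6.7%), 3.63% toward BY and 3.06% toward RM. At an unadjusted p under 0.05 there were 4 members, SNF3, HXT7, HXT6 and MSR1/HXT4, and 460 genes of the 2808, and DESeq2 also called none. Changes of log2(BY/RM) over 42 min are given with an interval of 2 errors. HXT1 had 0.11 (from -0.55 to 0.77), HXT2 0.19 (-0.36 to 0.74) and RGT2 0.33 (-0.17 to 0.83), so a change of 1 on the log2 scale lies outside each of these intervals. MSR1/HXT4 had 0.67 (0.02 to 1.32, adjusted p = 0.275), with 55 reads left over the 3 libraries of 42 min. HXT6 had 1.19 (0.08 to 2.31, adjusted p = 0.246), resting on 75 RM reads in all libraries. HXT7 had -0.27 (-0.51 to -0.03, adjusted p = 0.195).

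SNF3 came nearest to a call, with 0.89 (0.17 to 1.61, adjusted p = 0.145), and its course was not steady. The BY share in cultures 1 to 3 was 44.6%, 49.1% and 41.0% at 0 min, and 59.0%, 50.0% and 58.3% at 6 min. It was 37.5%, 40.0% and 38.5% at 24 min, and 81.0%, 52.5% and 77.3% at 42 min. Each culture was highest at 42 min, culture 2 by the least, from 50.0% at 6 min. Of the 26 SNVs of SNF3 with reads at 0 min, 9 had over 50% BY reads, and at 42 min 21 of 27 had. These SNVs are not independent, since they share the same libraries and a read can be counted at more than 1 SNV. Several held only 1 read at 42 min, so their number adds no evidence beyond the BY shares of the cultures. With time as a factor the change at 42 against 0 min was 1.45 and passed (adjusted p = 0.00454), while without the 42 min libraries the slope was -0.81 (adjusted p = 0.630). The rise thus rests on the 42 min libraries, which held 21, 40 and 44 reads of SNF3.

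**Figure D4:**
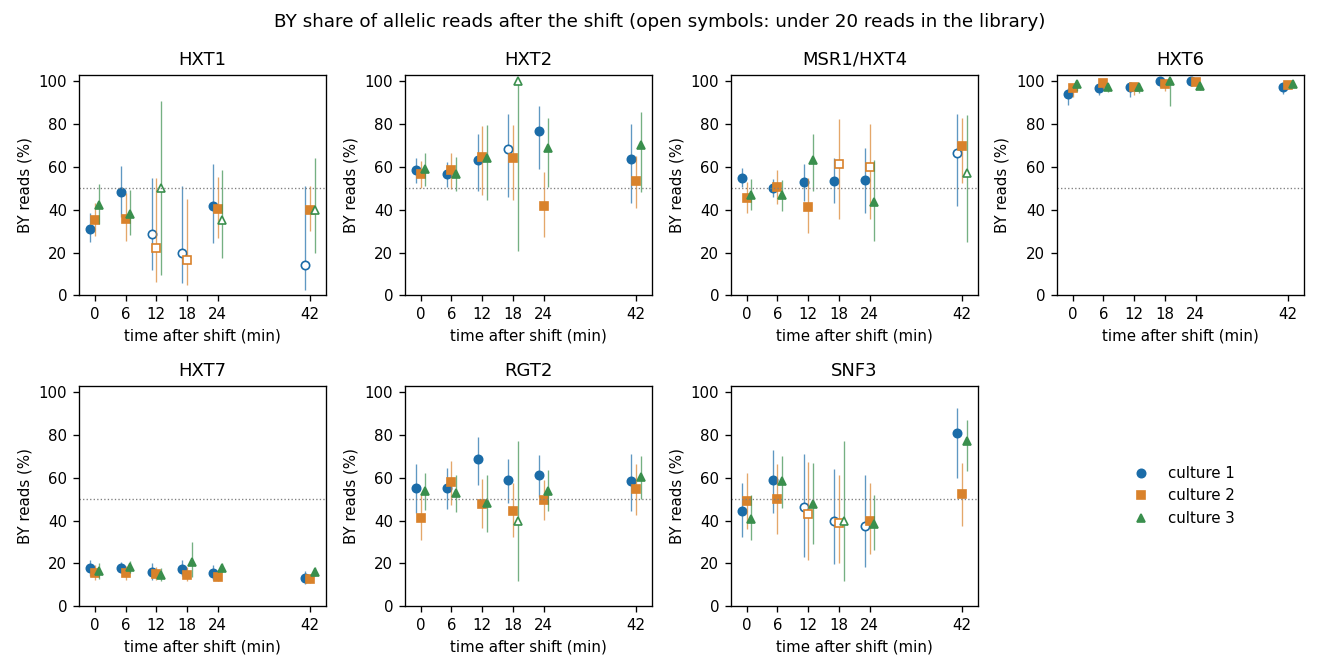
BY share of allelic reads in percent against time after the shift in minutes, by library, with 95% Wilson intervals of counting error, and symbols by culture. Open symbols mark libraries with under 20 reads of the feature. HXT6 stays above 94% and HXT7 at or below 20.7%, and SNF3 stands at 81.0%, 52.5% and 77.3% in cultures 1 to 3 at 42 min.

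At 42 min itself 6 members had enough reads to be tested for an allele difference, all but MSR1/HXT4. HXT6, HXT7 and SNF3 were called, against 28.4% of 2609 genes, 13.7% higher from BY and 14.7% from RM. HXT6 had a log2(BY/RM) of 5.90 ± 0.18 and HXT7 -2.58 ± 0.08, on the same sides as at 0 min. SNF3 had 1.12 ± 0.30 (adjusted p = 0.00235). It was 1.85 without culture 2 (adjusted p = 2.52e-05). It lost the call without culture 1 (0.92, adjusted p = 0.0726), without culture 3 (0.72, adjusted p = 0.180) and in DESeq2 (1.25, adjusted p = 0.235). HXT1 (-0.69 ± 0.29, adjusted p = 0.0673) and HXT2 (0.51 ± 0.29, adjusted p = 0.197) kept the sign of 0 min and did not pass at this depth of 102 and 104 reads over 3 libraries. RGT2 had 0.47 ± 0.20 (adjusted p = 0.0727).

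Other genes of the glucose response were taken from 4 lists and counted where a feature holds 1 gene. Of 6 genes of the induction pathway 2 were tested for abundance at 42 against 0 min. GRR1 rose by 1.19 ± 0.10 on the log2 scale, from 222 to 508 CPM on average. STD1 fell by 0.39 ± 0.17 (adjusted p = 0.0452), a call lost without culture 1 or 3 (adjusted p = 0.239 and 0.0996), in DESeq2 (adjusted p = 0.0599) and without the shallow library (adjusted p = 0.0523). Of 12 genes of glucose repression 6 were tested, 4 rose and 1 fell, with a median log2 change of 0.64 against -0.05 for all genes. As 76.3% of all genes were called, 5 of 6 is near the background. SIP2, a subunit gene of the Snf1 kinase, rose by 1.77 ± 0.35, and SNF4, the gene of its activating subunit, by 0.81 ± 0.21. SIP1, another subunit gene, rose by 0.78 ± 0.21 and SNF1, the kinase gene, by 0.50, but with library totals neither passed (adjusted p = 0.0552 and 0.0668). MIG3, a gene for a repressor of the Mig family, had a log2 change of -1.42 ± 0.44 (adjusted p = 0.00628), and -0.40 without culture 1 (adjusted p = 0.301) and -2.07 without culture 3. The hexokinase and glucokinase genes all lie in features with other genes, and none of 11 further hexose transporter genes had a feature of its own with enough reads to be tested.

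Alleles were called for a few of these genes. MIG3 had an ASD change of -2.63 ± 0.49 (adjusted p = 5.83e-05), the only call among 6 repression genes and 2 induction genes tested, against 6.7% of all genes. The BY share of MIG3 was 44.1% ± 7.43 over the cultures at 0 min, with 91 BY and 104 RM reads. It was 21.1% ± 19.0 at 42 min, with 8 BY and 48 RM reads (SD, n = 3). Leaving out the libraries of 0 min ended the call (-1.91, adjusted p = 0.162), and without those of 42 min the value was -3.45. At 0 min SIP2 was higher from BY, with a log2(BY/RM) of 1.07 ± 0.27 (adjusted p = 0.00512), the only call among 7 repression and 2 induction genes, against 23.0% of all genes. That call was lost without culture 2 (adjusted p = 0.0621) and in DESeq2 (adjusted p = 0.299). At 42 min 3 of 5 repression genes and 0 of 3 induction genes were called, against 28.4% of all genes. They were SIP2 (0.49), GAL83 (-0.33) and SNF1 (-0.30), none of which passed in DESeq2 (adjusted p = 0.433, 0.554 and 0.307). SIP2 also missed the threshold without culture 1 or 2 (adjusted p = 0.155 and 0.348), and GAL83 without culture 1 or 3 (adjusted p = 0.471 and 0.208).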

How the data were processed

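The authors deposited raw allelic read counts, with 1 row per SNV and no normalization. Per the file headers, reads were aligned separately to the BY and RM genomes, duplicates were removed, and reads were counted at SNVs within gene features that include untranslated regions, with overlapping genes consolidated and poorly mapping sites masked. The submitters' processing notes name BWA 0.5.9, Picard 1.43 and sacCer3. The TruSeq kit named in the labels' protocols gives no strand information. The series-wide table has 30497 SNVs, against 35952 in those of single libraries, with identical counts where both hold an SNV. Why 5455 SNVs, holding 9.82% of allelic reads, are in the latter alone is not said in the labels or headers.

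SNV counts were summed per feature. A read covering several SNVs can be counted more than once, and Wilson intervals of BY shares cover counting error only. Intervals of log2 values are ± 2 approximate standard errors and include the spread between libraries. edgeR 4.0.16 (R 4.3.3) quasi-likelihood tests with Benjamini-Hochberg adjustment were fitted on all features with a mean of at least 20 reads per library. ASD used 36 allele columns with terms for library, allele and allele by minutes (slope times 42) and at least 2 reads per allele on average. Allele differences used library and allele, with the minimum of 20 taken over the 3 libraries of that time. Abundance used allele sums, TMM factors and time as a factor. Its main fit had no term for culture, so it did not use the pairing and differences between cultures are part of its error. For abundance, the replicate block adds that term. DESeq2 1.42.0 was an alternative. Coordinates are of R64, the assembly that sacCer3 stands for, matched by gene name. Copies were found with blastn 2.17.0. Tables were made with Python 3.11.15. The tests were also run on simulated independent counts. These held no differences between cultures, no reads counted at several SNVs and no reads placed on a copy, so such features were not checked.

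Replicate numbers mark the culture from which the aliquots of a course were taken, per the labels, so libraries are paired by culture. Departures from each time's mean correlated with a median of 0.165 within cultures (45 pairs) and -0.065 between them (90 pairs). The departures of a time cancel out, so the value between cultures follows largely from that within them and adds no separate evidence. Between replicates of a time the chi-square over its degrees of freedom was 1.31 to 8.08. Reads counted at several SNVs also raise this ratio, so it does not by itself show a spread beyond sampling noise. The members, the 4 lists and the naming rule (all members, up to 3 called genes per list, direction and comparison, and 3 like features per member) were chosen with earlier results of these data known. The alternatives were leaving out a culture or the shallow library, other SNV sets, filters, scalings and designs.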

Additional observations from a re-analysis of the deposited data

Results flagged for a closer look

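Reads at SNVs that are in the tables per library but not in the table of the whole series were seen for 3 members. They were flagged because they lie outside the main measurement and exceed the 3 counts that a count of 0 allows. HXT6 had 596 such reads at 7 SNVs, all 596 from BY and 0 from RM. HXT7 had 1952 at 8 SNVs, 1040 from BY and 912 from RM, with BY shares from 41.4% to 88.0%, against 1654 of 10400 from BY at the SNVs of the main table. HXT1 had 14 at 1 SNV, all from BY. With these SNVs included, 4 members were again called at 0 min, but the log2(BY/RM) of HXT7 moved from -2.34 to -1.75 at 0 min and from -2.58 to -1.95 at 42 min. The cause of the differences between the SNV sets was not tested.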

How the results depend on the processing

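The number of members called stayed within 1.5 times the main number under most alternatives. At 6 against 0 min, where HXT6 alone was called, it was 2 without a minimum count, 0 with library totals, 3 with the replicate block, 3 with only the libraries of 0 and 6 min, and from 0 to 2 with 1 culture left out. With 1 culture left out it ranged from 3 to 6 at 12 min and from 2 to 7 at 18 min. The calls over all genes in these fits at 12 and 18 min are not given here, so the ranges cannot be read as a trait of the members. For ASD the number of members called was 1 with time as a factor, where 166 of 2808 genes were called. The replicate block changed the call of HXT1 (-0.97) and HXT7 (0.77) at 6 min, MSR1/HXT4 at 12 min, RGT2 at 18 min (0.42, adjusted p = 0.0427) and SNF3 at 24 min (-0.70, adjusted p = 0.0162), all to a pass, and no other call of a member. Over all genes 697 were called for alleles at 0 min, but 428 without replicate 2, 229 in DESeq2 and 392 at the deepest SNV. At 42 min 742 were, but 237 in DESeq2 and 354 at the deepest SNV. For ASD 188 were, but 124 and 99 without replicates 1 and 3, 122 in DESeq2, 42 at the deepest SNV, 87 without the 0 min and 115 without the 42 min libraries. At 6 min 991 of 2840 were, but 535 without replicate 2, 740 without replicate 1 and 817 without replicate 3. It was 1088 of 3829 without a minimum count, 988 with library totals, 1197 with the replicate block and 1090 with only the libraries of 0 and 6 min.

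Of 687 values of single genes, 607 kept direction and side of the threshold, 52 lost the call, 15 gained it and 13 turned, and none of the 13 had a call in the main fit. For ASD they were HXT2 without replicate 1 (from -0.024 to 0.87 with 1 replicate left out), HXT1 without replicate 2 (from -0.12 to 0.24) and without the 0 min libraries (-0.087), HXT7 at the deepest SNV (0.052) and SNF3 without the 42 min libraries (-0.81). For alleles at 0 min they were MSR1/HXT4 without replicate 1 (from -0.21 to 0.15) and in DESeq2 (-0.015), and RGT2 without replicate 1 or 3 (from -0.14 to 0.24). For abundance they were MSR1/HXT4 at 6 min without replicate 1 (0.26) and with the replicate block (0.015), and RGT2 at 42 min without replicate 3 (from -0.046 to 0.11) and with library totals (-0.27). The cause was not tested. Library totals moved the median of all genes at 42 min from -0.05 to -0.37. HXT6 had no value once SNVs read nearly from 1 allele (under 2% or over 98% BY) were dropped, and HXT1, RGT2 and SNF3 had too few reads at their deepest SNV for ASD.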
